A study of Mus musculus with 4 samples.

Results

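The genes described here are 37 transcripts that were at least 4-fold lower in the hippocampus of mice lacking astrocyte aromatase than in their controls, in every pairing of the libraries. They were selected on these measured values: the lower of the 2 control levels had to reach 1 CPM (reads per 1e6 gene reads) and to be at least 4 times the higher of the 2 knockout levels. Of 22609 gene symbols, 13271 reached that control level and 48 of these, or 0.362%, met both limits. The rule then set aside 11 of the 48 by name, among them Timp1, Lif, Socs3, Cd44 and 2 chemokine genes, which left 37. Because the contrast itself chose the genes, their differences between the genotypes are given as descriptions without a test.

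Both groups were ovariectomized female mice whose common carotid arteries were closed for 20 min, with hippocampal RNA taken 24 h later. The 2 control samples (FLOX-control) carried the loxP-flanked Cyp19a1 gene without its deletion, and the 2 knockout samples (GFAP-ARO-KO) had it deleted by Cre under the GFAP promoter, which the labels describe as active in astrocytes alone. Cyp19a1 encodes aromatase, the enzyme that makes estrogens from androgens. All animals had lost their ovaries 1 week before surgery and all had ischemia, so no value here describes uninjured tissue. The strain, the age and the number of animals behind each sample were not given in the sources used here. All p-values below therefore measure the spread between these samples, which may be technical. Whole hippocampus was sequenced, so fewer cells of a type and less RNA per cell cannot be told apart.

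When blood flow stops and returns, neurons release glutamate and purines, and astrocytes and microglia change state within hours. Reactive glia secrete cytokines, matrix proteins and protease inhibitors, microglia display pattern recognition receptors, and oligodendrocytes, which wrap axons in myelin, are vulnerable to loss of oxygen. Astrocytes of the forebrain can begin to make aromatase after injury, and the estrogen formed in the tissue acts on neighboring cells. By known role, grouped after their values were seen, the selected genes include neuropeptides and a cytokine, matrix and protease control, innate immune receptors, transcription factors, and glial lipid proteins.

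Gene reads numbered 33495548 and 33235564 in the control libraries and 34878375 and 27930696 in the knockout libraries, so 3 reads, the number that a count of 0 allows, corresponded to between 0.0860 and 0.107 CPM. Cyp19a1 gave 3 and 2 control reads and 1 and 9 knockout reads, too few to check the genotype labels. Microglial markers summed to 356.3 and 393.0 CPM in the control libraries and to 194.8 and 180.9 CPM in the knockout libraries. Mural and meningeal markers summed to 149.6, 199.8 and 175.5 CPM in both controls and the first knockout and to 619.7 CPM in the second knockout. An edgeR quasi-likelihood test over 15011 genes placed 1652 genes lower in the knockout (11.0%) and 1409 higher (9.39%) at an adjusted p of 0.05, and these shares are the background for every count of called genes below.

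The members were mostly weakly expressed. Their median mean control level was 5.86 CPM, against 28.7 CPM over the 13271 genes that reached the control limit. The mean control level was under 5 CPM for 16 members and at least 20 CPM for 7. Together they summed to a mean of 390.7 CPM in the control libraries and 59.5 CPM in the knockout libraries. Leaving out Gm5150, which had no knockout read, the ratio of the lower control to the higher knockout level had a median of 5.36, with 7 members at 10 or more, 15 between 5 and 10 and 14 below 5. The limit fell in a continuous range: Clcf1 (4.41), 1500015A07Rik (4.32) and Ugt8a (4.24) lay just inside it, and Acat3 (3.92), Fcgr1 (3.89), D330050G23Rik (3.86) and Klk6 (3.86) just outside.

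**Figure D1:**
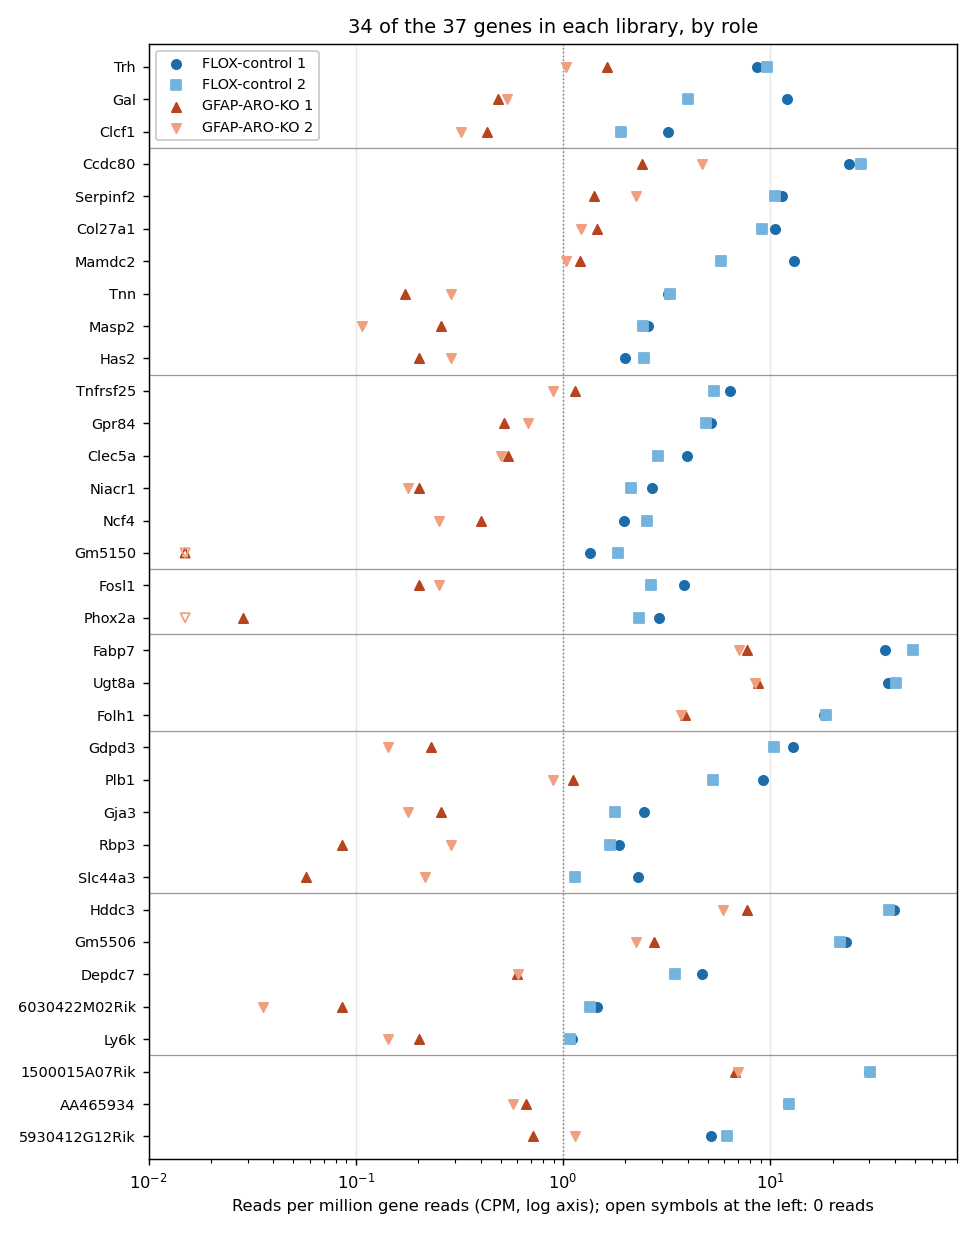
CPM of 34 of the 37 members in each of the 4 libraries on a log axis, with 1 row per gene; points are single libraries and libraries with 0 reads are open symbols at the left edge. Both control points lie to the right of both knockout points in each row, as the rule requires, and control levels run from about 1 CPM for Ly6k to 49.0 CPM for Fabp7.

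**Figure D2:**
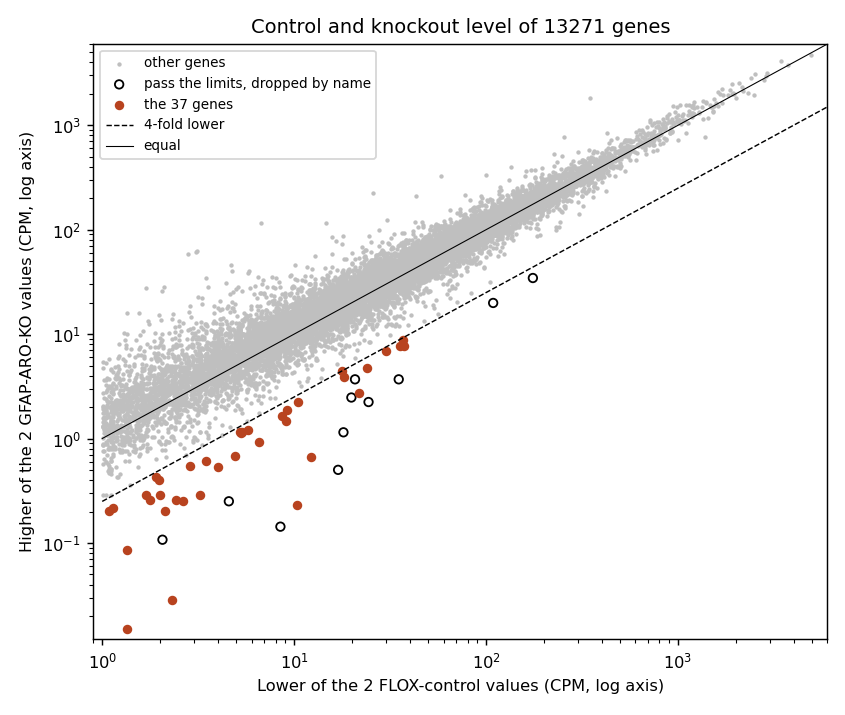
Lower control CPM against higher knockout CPM for the genes that reached the control limit, both on log axes, with the 4-fold line; a knockout level of 0 is drawn at the bottom edge. The members and the 11 genes dropped by name (open circles) are the points beyond the line, and the members gather at low control levels, with a median mean control level of 5.86 CPM against 28.7 CPM for all 13271 genes.

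The secreted signals were Gal, Trh and Clcf1. Gal encodes galanin, a neuropeptide that dampens transmitter release and rises in injured neurons. It was at 12 and 4.0 CPM in the control libraries and at 0.487 and 0.537 CPM in the knockout libraries. The controls differed 3-fold from each other, yet the lower control still lay 7.45 times above the higher knockout. Trh encodes the precursor of thyrotropin-releasing hormone, a tripeptide that also acts as a neuromodulator outside the hypothalamus. Its levels were 8.66 and 9.66 CPM in the control libraries against 1.63 and 1.04 CPM in the knockout libraries, and the controls agreed closely. Clcf1 encodes cardiotrophin-like cytokine factor 1, a cytokine of the IL-6 family that signals through the CNTF receptor. It was at 3.19 and 1.90 CPM in the control libraries and at 0.430 and 0.322 CPM in the knockout libraries.

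The genes that act with these signals were read from the same test, in a list drawn up after the members were known. Trhde, the ectoenzyme that degrades thyrotropin-releasing hormone, fell from 48.6 and 57.3 CPM to 24.3 and 32.1 CPM (log2 fold change -0.94 ± 0.16 SE, adjusted p = 0.00948), and the call was lost without the second control (adjusted p = 0.0609). The galanin receptor gene Galr1 was near the detection limit, at 0.269 and 0.451 CPM against 0.315 and 0.430 CPM (log2 fold change 0.00). Cntfr, the receptor subunit that binds Clcf1, rose from 60.2 and 59.5 CPM to 78.6 and 80.1 CPM, and that call was lost without either control (adjusted p = 0.179 and 0.185). The lower level of Clcf1 was a condition of its selection, so the opposite directions of ligand and receptor gene are not a like comparison.

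The products of the matrix and protease genes act outside the cell. Serpinf2 encodes alpha2-antiplasmin, the inhibitor of plasmin, and was at 11.4 and 10.5 CPM in the control libraries and 1.41 and 2.26 CPM in the knockout libraries. Plasmin is the protease that dissolves fibrin clots and is formed from plasminogen by 2 activators. Of the other plasminogen and serpin genes listed, 0 of 9 tested passed in either direction with edgeR, 1 (Plau, lower) had an unadjusted p under 0.05, and DESeq2 called 0. Without the second knockout 3 were called lower, and without the first 2 were called higher. The activator gene Plat (tissue plasminogen activator) was at 60.9 and 62.6 CPM in the control libraries and 62.7 and 66.5 CPM in the knockout libraries (log2 fold change 0.04, adjusted p = 0.802). Plau (urokinase) was at 2.69 and 3.22 CPM against 1.00 and 1.86 CPM and missed the threshold (log2 fold change -1.11, adjusted p = 0.0535). The gene with the higher CPM of these activators thus sat at nearly one level in all libraries. The difference in Serpinf2 was a condition of its selection, so the 2 genes are not a like comparison.

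Ccdc80, a secreted protein of the extracellular matrix, had the highest mean control CPM of the group. Its levels were 24.1 and 27.3 CPM in the control libraries and 2.41 and 4.69 CPM in the knockout libraries. Col27a1, a fibrillar collagen, was at 10.5 and 9.09 CPM against 1.46 and 1.22 CPM. Mamdc2, a secreted protein with MAM domains, was at 12.99 and 5.78 CPM against 1.20 and 1.04 CPM, so its controls differed from each other 2.25-fold. Tnn encodes tenascin-W, a glycoprotein of the tenascin family found around remodeling tissue. It was at 3.22 and 3.28 CPM in the control libraries and 0.172 and 0.286 CPM in the knockout libraries, a ratio of 11.3. Has2 encodes a hyaluronan synthase of the cell surface and was at 2.00 and 2.47 CPM against 0.201 and 0.286 CPM. Masp2 encodes the serine protease that starts complement cleavage in the lectin pathway and was at 2.57 and 2.44 CPM against 0.258 and 0.107 CPM. These 3 weakly expressed genes had the 3 largest ratios of the group, at 11.3, 6.98 and 9.45.

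Some relatives of the matrix genes also differed with edgeR, and others did not. Col5a1, Has1, Hyal1, Hyal2 and the tenascin gene Tnr did not pass, with log2 fold changes of -0.20, -0.61, -0.26, 0.09 and -0.64. With DESeq2 Tnr was called (adjusted p = 0.0136). Tnc, the tenascin made by reactive astrocytes, fell from 11.7 and 12.5 CPM to 3.58 and 2.72 CPM (log2 fold change -1.95 ± 0.20, adjusted p = 0.00192). Col11a1 fell from 6.54 and 6.95 CPM to 2.55 and 1.504 CPM (log2 fold change -1.72 ± 0.26, adjusted p = 0.00649). Has3 and the hyaluronan-binding Tnfaip6 had log2 fold changes of -1.14 ± 0.22 (adjusted p = 0.0130) and -1.02 ± 0.19 (adjusted p = 0.0121), and both calls were lost when either control was left out. Tnxb rose (log2 fold change 0.90), though not when the first control was left out (adjusted p = 0.122), so the tenascin family moved in both directions.

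The innate immune and death receptor group held 6 members, known mainly from myeloid cells and lymphocytes. Gpr84, a receptor for medium-chain fatty acids that activated microglia express, was at 5.20 and 4.90 CPM in the control libraries and 0.516 and 0.680 CPM in the knockout libraries. Niacr1 (Hcar2 in RefSeq), the receptor for niacin and the ketone body beta-hydroxybutyrate, was at 2.69 and 2.14 CPM against 0.201 and 0.179 CPM. Clec5a, a C-type lectin receptor of myeloid cells, was at 3.94 and 2.86 CPM against 0.545 and 0.501 CPM. Within this group Niacr1 had the largest ratio that could be computed, 10.6. Ncf4, which encodes the p40phox subunit of the phagocyte NADPH oxidase, was at 1.97 and 2.53 CPM in the control libraries and 0.401 and 0.251 CPM in the knockout libraries. Tnfrsf25, a death domain receptor of the TNF receptor family found mainly on lymphocytes, was at 6.36 and 5.36 CPM against 1.15 and 0.895 CPM. Gm5150, a predicted gene of the signal regulatory protein family, had 45 and 61 control reads and none in either knockout, so it was at least 12.5-fold lower against a floor of 3 reads per library. It was the single member with no knockout read at all.

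Microglial markers moved with these genes: 8 of the 10 in the list passed lower in the knockout, with a median log2 fold change of -1.18, and their part in the members' values was not tested. Each of the 10 was detected. Csf1r, with the highest CPM, fell from 102.3 and 110.2 CPM to 60.6 and 55.2 CPM (log2 fold change -0.90 ± 0.11, adjusted p = 0.00310). Markers of infiltrating leukocytes summed to 10.2 and 11.8 CPM in the control libraries and 6.25 and 10.1 CPM in the knockout libraries. Of the 2 leukocyte markers tested with edgeR 0 passed, 1 had an unadjusted p under 0.05 and DESeq2 called 0. Tyrobp, the adaptor through which Clec5a signals and already counted among the 8 microglial markers, fell (log2 fold change -1.12 ± 0.16, adjusted p = 0.00515). The catalytic oxidase subunit gene Cybb was at 0.508 and 1.29 CPM against 0.0860 and 1.04 CPM, and its groups overlapped.

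Fosl1 and Phox2a are the members that encode transcription factors. Fosl1 encodes Fra-1, a partner of Jun proteins in AP-1 dimers, and was at 3.85 and 2.65 CPM in the control libraries and 0.201 and 0.251 CPM in the knockout libraries. Phox2a, a homeodomain factor of noradrenergic neurons, had 97 and 77 control reads and 1 and 0 knockout reads. The pooled ratio of control to knockout level was 163.8, with a 95% counting interval of 29.0 to 6505 that covers counting error only. This was the largest ratio among the members with any knockout read, and it rests on 1 read.

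Some other AP-1 genes passed lower as well, part of them only with all libraries in the fit. Fosb (log2 fold change 0.28, adjusted p = 0.711) and Jund (0.01, adjusted p = 0.947) did not pass. Fosl2 fell from 103.8 and 88.8 CPM to 51.9 and 35.9 CPM (log2 fold change -1.15 ± 0.18, adjusted p = 0.00745). Fos fell from 31.5 and 16.4 CPM to 7.17 and 6.70 CPM (log2 fold change -1.81 ± 0.32, adjusted p = 0.0133), which did not hold without either knockout (adjusted p = 0.207 and 0.134). Atf3, a stress-induced factor that pairs with Jun, fell from 6.93 and 5.33 CPM to 1.18 and 1.75 CPM (log2 fold change -2.11 ± 0.28, adjusted p = 0.00427). Beyond Fosl1, 6 of the 12 tested genes in the list of stress and growth factors passed lower, of which 3 remained without the first control and 3 without the second knockout.

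Fabp7, the brain lipid binding protein of astrocytes and radial glia, had the highest control CPM of all members, at 35.6 and 49.0 CPM, against 7.68 and 7.05 CPM in the knockout libraries. Ugt8a encodes the galactosyltransferase that makes galactosylceramide, a major myelin lipid, and was at 37.1 and 40.4 CPM against 8.75 and 8.45 CPM. Folh1 encodes the peptidase that splits the transmitter N-acetylaspartylglutamate (NAAG), and was at 18.1 and 18.6 CPM against 3.87 and 3.72 CPM. In Ugt8a and Folh1 the libraries of a group lay close together, and the ratios of the 3 genes were 4.63, 4.24 and 4.67.

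Relatives and partners listed with the glial members did not all move alike. Galc, Gal3st1 and Naalad2 did not pass, with log2 fold changes of 0.03, -0.55 and -1.08. Rimkla, Rimklb and Fabp5 did not pass either, with 0.37, -0.19 and 0.42. Grm3, the glutamate receptor that NAAG activates, fell from 56.0 and 58.1 CPM to 14.9 and 15.7 CPM (log2 fold change -1.93 ± 0.12, adjusted p = 4.03e-04). Gjb1, connexin 32 of oligodendrocytes, fell from 19.8 and 16.7 CPM to 3.73 and 5.12 CPM (log2 fold change -2.08 ± 0.20, adjusted p = 0.00154). Fa2h, which hydroxylates the fatty acids of myelin galactolipids, fell from 31.1 and 30.6 CPM to 14.7 and 11.1 CPM (log2 fold change -1.28 ± 0.16, adjusted p = 0.00364). Connexin genes moved both ways: Gjb6, connexin 30 of astrocytes, rose from 46.6 and 46.3 CPM to 84.6 and 119.7 CPM (log2 fold change 1.11 ± 0.16, adjusted p = 0.00647), and Gja1, connexin 43, was at 137.1 and 149.8 CPM against 117.5 and 147.3 CPM. Oligodendrocyte markers summed to 4261 and 3969 CPM in the control libraries and 3596 and 3865 CPM in the knockout libraries, with 4 of 8 passing lower and none undetected. Of these 4 calls, 1 remained without the first control (Mag) and 1 without the second (Olig2). Astrocyte markers summed to 5384 and 5590 CPM against 4314 and 4573 CPM, with 3 of 8 passing lower, 2 of them still without either control, and none undetected. The most abundant astrocyte marker, Slc1a2 (log2 fold change -0.16, adjusted p = 0.222), did not pass. Nor did Mbp, the most abundant oligodendrocyte marker (log2 fold change -0.17, adjusted p = 0.215). The part of either cell type in the members' values was not tested.

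Channels, transporters and lipid enzymes formed a further group. Gdpd3, a lysophospholipase D of the glycerophosphodiester phosphodiesterase family, was at 12.9 and 10.4 CPM in the control libraries and 0.229 and 0.143 CPM in the knockout libraries. Its ratio of 45.3 was the largest among members with more than 1 knockout read. Plb1, a membrane phospholipase, was at 9.20 and 5.27 CPM against 1.12 and 0.895 CPM. Both enzymes cleave membrane lipids. Gja3 encodes connexin 46, known from the lens, and was at 2.45 and 1.78 CPM against 0.258 and 0.179 CPM. Rbp3, the retinoid-binding protein of the space around photoreceptors, was at 1.85 and 1.69 CPM against 0.0860 and 0.286 CPM. Slc44a3, a choline transporter-like protein, was at 2.30 and 1.14 CPM against 0.0573 and 0.215 CPM. A relative went the other way. Slc44a5, a relative of Slc44a3, rose from 20.1 and 25.6 CPM to 46.0 and 46.5 CPM (log2 fold change 0.99 ± 0.14, adjusted p = 0.00530). The low knockout levels of Rbp3 and Slc44a3 lie within a few reads of the floor.

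The remaining 8 members have varied or unknown roles. Hddc3, a phosphohydrolase related to the bacterial stringent response enzymes, was at 39.7 and 37.4 CPM in the control libraries and 7.71 and 5.94 CPM in the knockout libraries. Depdc7, a DEP domain protein, was at 4.66 and 3.46 CPM against 0.602 and 0.609 CPM. Ly6k, a lipid-anchored surface protein known from the testis, was at 1.11 and 1.08 CPM against 0.201 and 0.143 CPM, the lowest control level of the set. The 2 clone-named loci AA465934 and 1500015A07Rik are long non-coding RNAs in RefSeq. AA465934 was at 12.2 and 12.3 CPM against 0.659 and 0.573 CPM, and 1500015A07Rik was at 30.0 and 30.2 CPM against 6.77 and 6.95 CPM. In both, the 2 controls were nearly equal. The non-coding 5930412G12Rik (Fzd10os in RefSeq) was at 5.20 and 6.17 CPM against 0.717 and 1.15 CPM. The gene 6030422M02Rik, Mcmdc2 in RefSeq and known from meiotic recombination, was at 1.46 and 1.35 CPM against 0.0860 and 0.0358 CPM. Gm5506, Eno1b in RefSeq, is a gene of the glycolytic enzyme enolase, and was at 23.1 and 21.7 CPM against 2.75 and 2.26 CPM.

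The Gm5506 value is uncertain because its sequence has a near-identical copy. Only 8.62% of the 50-base windows in its transcript occurred once in the NCBIM37 genome, and Eno1, the enolase gene of most tissues, was listed at 1, 0, 0 and 0 reads. Reads of the enolase genes could thus have been split or set aside in counting, and 35.7% to 37.4% of the entries in the files were alignments at several places. Gm5150 had 87.7% of windows unique and Tnn 90.9%, and the other 32 members with a transcript in the annotation had at least 96.9%.

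Per kilobase of exon the order of the members changed. Among the 35 with a gene model, mean control levels ran from 0.228 RPKM for 6030422M02Rik to 44.9 RPKM for Hddc3, with a median of 1.90 RPKM. Hddc3 was at 7.94 RPKM in the knockout libraries. Fabp7 followed at 33.8 RPKM in the control libraries and 5.90 RPKM in the knockout libraries. Gal, whose transcript is short, was at 11.2 RPKM against 0.719 RPKM, and Gdpd3 at 10.9 RPKM against 0.175 RPKM.

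The controls differed more from each other in some members than counting allows. The first control was higher than the second in 23 of 37 members, or 62.2%, against 56.4% of all 13271 genes. The 95% counting interval of their ratio lay above 1 for 10 members (27.0%, against 25.9% of all genes) and below 1 for 3 (8.11%, against 18.3%). Gal stood highest, at 3.0 (2.46 to 3.68), and others were Mamdc2 at 2.25, Slc44a3 at 2.01, Plb1 at 1.75 and Clcf1 at 1.69. Of these, Gal, Mamdc2 and Clcf1 encode secreted proteins. Fosl1, Clec5a, Depdc7 and Gdpd3 also lay above 1. The 3 that were higher in the second control were Fabp7 at 0.727, Ccdc80 at 0.883 and Ugt8a at 0.919. Between the knockouts the interval lay above 1 for 2 members (5.41%, against 28.0% of all genes) and below 1 for 3 (8.11%, against 28.0%). The median absolute log2 ratio of the knockouts was 0.40 for members and 0.17 for all genes. Hddc3 (1.30) was among those higher in the first knockout, and Ccdc80 (0.514) and Serpinf2 (0.623) in the second. The second is the library with the high mural and meningeal markers, and the part of those cells in these values was not tested.

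**Figure D3:**
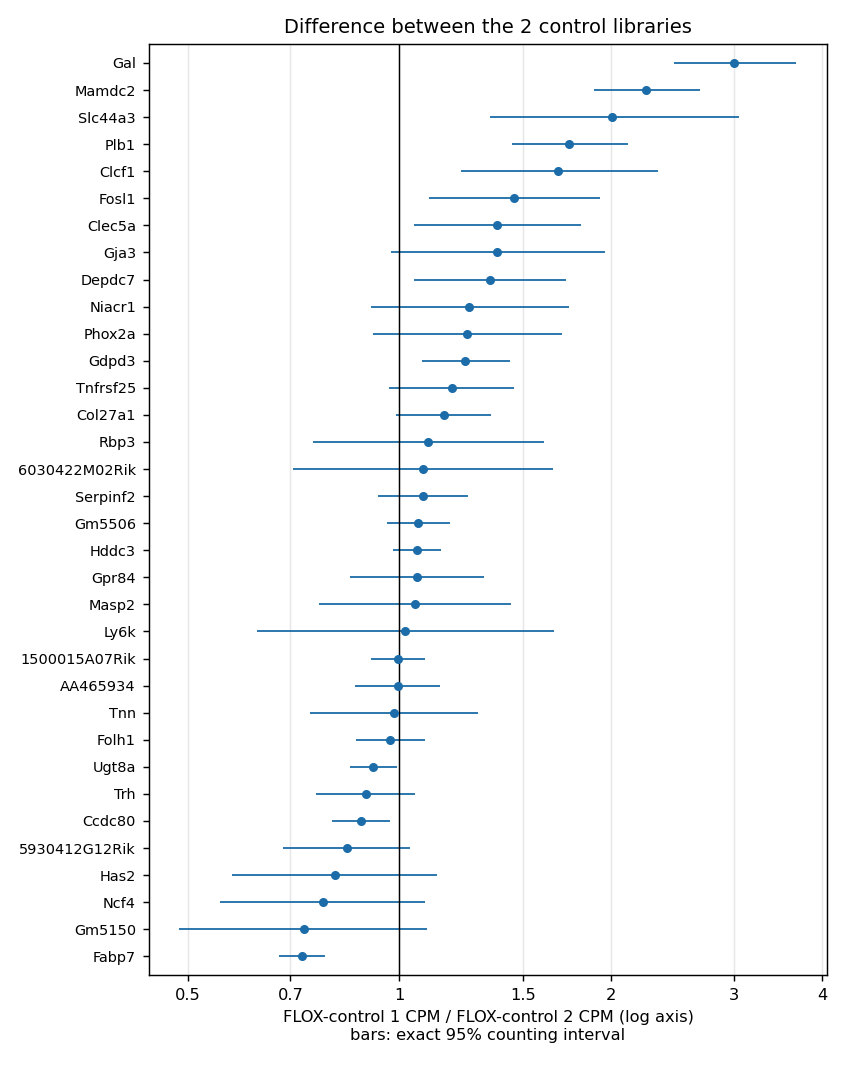
Ratio of the first to the second control library for 34 of the members, with its 95% counting interval, on a log axis. The interval lies above 1 for 9 of those drawn, with Gal the highest at 3.0, below 1 for 3 and holds 1 for 22.

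The 35 members with a GENCODE vM1 model on NCBIM37, the assembly behind mm9, lay on 14 chromosomes, and 34 were protein coding. Chromosomes 4, 5, 7, 15 and 19 held 4 each (11.4%), against 6.24%, 6.2%, 7.64%, 4.0% and 3.44% of tested genes. The closest pair was Gal (chromosome 19, 3409919 to 3414472, minus strand) and Clcf1 (chromosome 19, 4214238 to 4223490, plus strand), which lay 799766 bases apart. Fosl1 (chromosome 19, 5447703 to 5455945, plus strand) lay a further 1224213 bases along. Gdpd3 is on chromosome 7 from 133909928 to 133919157 on the plus strand, and Phox2a on the same chromosome from 108966827 to 108971680 on the plus strand. The overlap of a member with another gene was seen for 10 members, among them Phox2a with Inppl1, Masp2 with Tardbp and Fosl1 with Ccdc85b. Whether counting used strand was not given in the sources used here. Reads in such overlaps may therefore belong to either gene.

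Genes beside the members were called about as often as genes elsewhere. Within 60 kb of 28 members lay 97 tested genes that are not members; 13 (13.4%) were lower in the knockout and 10 (10.3%) higher, near the 11.0% and 9.39% over all genes. Their median log2 fold change was -0.03. Gdpd3 lies 595 bases from Mapk3, with a log2 fold change of 0.05, and 1312 bases from Ypel3, with -0.09, and neither passed.

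Some neighbors did move. Tcp11l1, 9615 bases from Depdc7, fell from 25.6 and 32.8 CPM to 11.7 and 7.77 CPM (log2 fold change -1.59 ± 0.22, adjusted p = 0.00531). Inppl1, a lipid phosphatase gene that overlaps Phox2a, fell from 41.0 and 43.8 CPM to 24.9 and 21.2 CPM (log2 fold change -0.90 ± 0.13, adjusted p = 0.00511). Fzd10, a Wnt receptor gene 151 bases from 5930412G12Rik, was at 3.40 and 3.37 CPM against 1.58 and 1.86 CPM, a log2 fold change of -1.01 ± 0.25 (adjusted p = 0.0287), not called without either control (adjusted p = 0.148 and 0.154) and with DESeq2. In the other direction, Sgk3, 6082 bases from 6030422M02Rik, rose from 9.94 and 7.79 CPM to 24.97 and 28.0 CPM (log2 fold change 1.55 ± 0.16, adjusted p = 0.00199). Plekhg5, 534 bases from Tnfrsf25, rose from 145.2 and 131.3 CPM to 296.1 and 285.7 CPM (log2 fold change 1.05 ± 0.10, adjusted p = 0.00133). Sgk3 and Plekhg5 thus rose beside members whose lower level was a condition of selection. Without the first control 4 of the 13 lower and 6 of the 10 higher calls remained, and without the second 3 and 3.

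**Figure D4:**
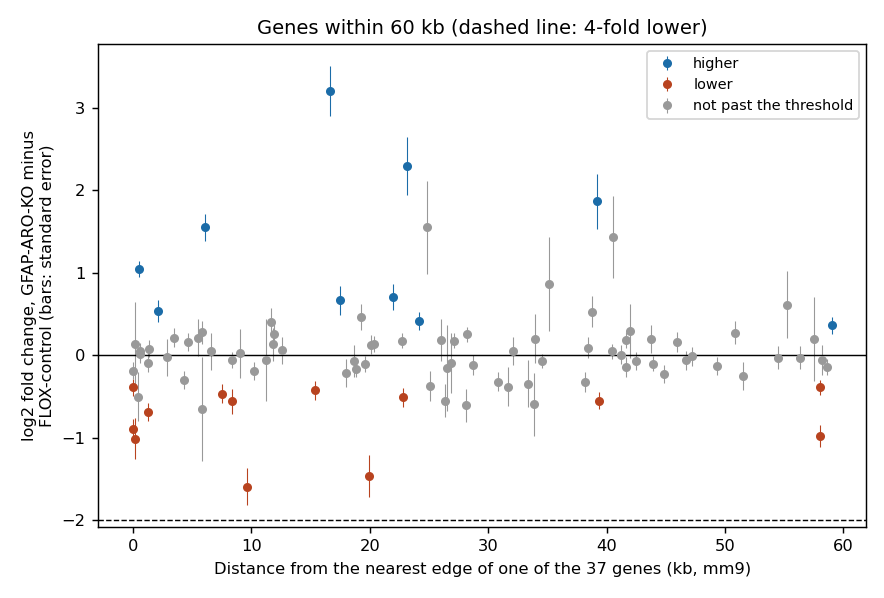
Log2 fold change (knockout minus control) of tested genes within 60 kb of a member against their distance from it in kilobases, with bars for the standard error. The points scatter around the median of -0.03, with 13 of 97 called lower, 10 called higher and 74 not passing.

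Promoters were searched for short motifs of factors that injury or estrogen engages. RefSeq promoters of GRCm38.p6, 250 bases before to 50 after each start, were at hand for 22 members. The motifs, read on both strands, were AP-1 (TGANTCA), STAT (TTCNNNGAA), NF-kappaB (GGG and TTTCC with 2 bases between them), CRE (TGACGTCA) and the estrogen response element (GGTCA and TGACC with 3 bases between them). AP-1 matched in 1 of the 22 members (Plb1), against 7.81% of 32851 promoters, and STAT in 2 (Masp2 and Tnfrsf25), against 8.30%. NF-kappaB matched in 2 (Tnfrsf25 and Tnn), against 1.63%. CRE and the estrogen response element matched in none, against 1.79% and 0.07% of all promoters. The counts are small, and a match is a string of letters, not a measured site. The matching promoter of each of the 4 genes is shown 5′ to 3′ on the gene's strand with the match in capitals, to show where it lies; for Tnfrsf25 the one with the STAT match is given. They are the promoters of Tnn (chr1:160153526-160153825, minus strand, NF-kappaB), Masp2 (chr4:148602294-148602593, plus strand, STAT), Tnfrsf25 (chr4:152116093-152116392, plus strand) and Plb1 (chr5:32238834-32239133, plus strand, AP-1).
Tnn: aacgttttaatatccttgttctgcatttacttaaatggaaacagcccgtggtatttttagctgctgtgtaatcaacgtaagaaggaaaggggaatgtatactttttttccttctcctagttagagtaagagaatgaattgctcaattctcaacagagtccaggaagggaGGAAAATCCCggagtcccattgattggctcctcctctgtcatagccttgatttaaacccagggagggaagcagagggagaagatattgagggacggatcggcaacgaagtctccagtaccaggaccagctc
Masp2: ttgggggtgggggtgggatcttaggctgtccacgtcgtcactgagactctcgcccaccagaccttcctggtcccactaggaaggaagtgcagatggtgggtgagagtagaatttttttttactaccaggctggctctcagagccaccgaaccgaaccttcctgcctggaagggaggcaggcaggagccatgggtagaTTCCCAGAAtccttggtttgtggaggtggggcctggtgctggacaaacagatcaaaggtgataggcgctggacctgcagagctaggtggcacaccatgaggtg
Tnfrsf25: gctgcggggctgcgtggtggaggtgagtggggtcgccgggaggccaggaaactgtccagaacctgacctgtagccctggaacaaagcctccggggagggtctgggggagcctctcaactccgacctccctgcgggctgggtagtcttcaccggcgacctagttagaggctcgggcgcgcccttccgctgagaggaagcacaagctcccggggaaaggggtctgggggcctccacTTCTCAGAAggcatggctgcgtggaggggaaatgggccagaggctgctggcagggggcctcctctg
Plb1: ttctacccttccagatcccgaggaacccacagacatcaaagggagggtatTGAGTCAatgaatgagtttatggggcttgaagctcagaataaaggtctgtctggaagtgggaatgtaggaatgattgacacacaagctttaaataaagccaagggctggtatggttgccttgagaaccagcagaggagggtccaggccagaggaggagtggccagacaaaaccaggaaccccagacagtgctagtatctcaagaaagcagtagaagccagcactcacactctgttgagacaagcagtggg

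In the pathway lists, genes other than members were called lower more often than higher. Over 8 lists of pathway genes, 98 that are not members were tested; 28 were lower in the knockout, 7 higher and 63 did not pass, with a median log2 fold change of -0.28 against -0.000809 over all tested genes. The lower calls were 28.6% of the lists, against 11.0% over all genes, and the higher calls 7.14%, against 9.39%. The lists were chosen with earlier results of these data known, so these shares are a description and not a test. Without the first or the second control, 14 and 15 of the 28 lower calls remained and 2 of the 7 higher calls in each case.

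In the IL-6 family list, of which Clcf1 is a member, 4 of 13 other genes were lower and 3 higher. Bcl3, a nuclear partner of NF-kappaB proteins induced by cytokines, fell from 3.88 and 3.55 CPM to 0.287 and 1.00 CPM (log2 fold change -2.63 ± 0.42, adjusted p = 0.00726). Il11ra1, the receptor subunit for IL-11, rose from 9.46 and 9.39 CPM to 17.6 and 24.3 CPM (log2 fold change 1.12 ± 0.19, adjusted p = 0.00813). The other falls were Il11, the receptor subunit gene Osmr and the kinase gene Jak2, and the other rises were the receptor subunit genes Il6ra and Cntfr. Without the first control the calls that remained were Bcl3 and Il11ra1, and without the second they were Bcl3, Il11 and Il11ra1.

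The IL-1, TNF and NF-kappaB list had 5 of 17 genes lower. Of these, Tnfrsf1a and Ptgs2 remained without either control, while Il1a, Il1b and Il1rap did not, and 3 remained with DESeq2. Tnfrsf1a, the TNF receptor present on most cells, fell from 42.7 and 37.8 CPM to 16.1 and 20.3 CPM (log2 fold change -1.17 ± 0.15, adjusted p = 0.00365). Ptgs2, which encodes cyclooxygenase 2, fell from 59.5 and 62.3 CPM to 36.1 and 26.1 CPM (log2 fold change -0.99 ± 0.16, adjusted p = 0.00776). Of the phagocyte receptors, 5 of 15 were lower and 2 higher. Of the lower calls 2 remained without the first control and 1 without the second, and of the higher calls 1 in each case. Fcgr1, the high-affinity immunoglobulin receptor that lay just outside the 4-fold limit, fell from 6.09 and 5.69 CPM to 1.46 and 1.43 CPM (log2 fold change -2.04 ± 0.23, adjusted p = 0.00276). Tlr7, a receptor for single-stranded RNA, rose from 3.49 and 3.16 CPM to 9.06 and 10.8 CPM (log2 fold change 1.55 ± 0.20, adjusted p = 0.00382). Phagocyte genes thus did not fall as a block.

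Among sphingosine 1-phosphate genes, 2 of 8 were lower, and 1 was lower without either control. S1pr3, a receptor for that lipid found on reactive astrocytes, fell from 41.5 and 39.0 CPM to 10.4 and 12.4 CPM (log2 fold change -1.85 ± 0.14, adjusted p = 8.02e-04). S1pr1 was at 137.4 and 142.5 CPM against 89.2 and 113.7 CPM, a log2 fold change of -0.49 ± 0.13 (adjusted p = 0.0352), not called without one or the other control (adjusted p = 0.119 and 0.169). Of the wound matrix and integrin genes, 4 of 17 were lower and 2 higher, and 7 were lower without the second knockout and 6 higher without the first. Neither higher call (Spp1 and Mmp9) remained without either control. Adamts4, a protease that cuts brain proteoglycans, fell from 22.4 and 21.9 CPM to 7.34 and 8.31 CPM (log2 fold change -1.53 ± 0.15, adjusted p = 0.00155). Of the EGF receptor ligand genes, 2 of 7 were lower, and 1 was lower without either control or with DESeq2. Hbegf, a growth factor shed from the cell surface, fell from 49.5 and 34.5 CPM to 14.8 and 10.8 CPM (log2 fold change -1.73 ± 0.22, adjusted p = 0.00425). Btc, the related betacellulin, was at 1.19 and 1.35 CPM against 0.373 and 0.430 CPM, a log2 fold change of -1.69 ± 0.38 (adjusted p = 0.0224), not called without either control (adjusted p = 0.0929 and 0.140) and with DESeq2 (adjusted p = 0.0811).

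Relatives and partners of the single members were listed after the members' values were seen. Some of them, such as Fos, Jun and Cntfr, are also in the pathway lists, so their shares are no independent support. Of 68 tested, 17 (25%) were lower, 6 (8.82%) higher and 45 did not pass, with a median log2 fold change of -0.25. Over all genes 11.0% were lower and 9.39% higher. Without the first or the second control 9 of the 17 lower calls remained, and 11 without the second knockout. Of the 6 higher calls 2 remained without the first control and 3 without the second.

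**Figure D5:**
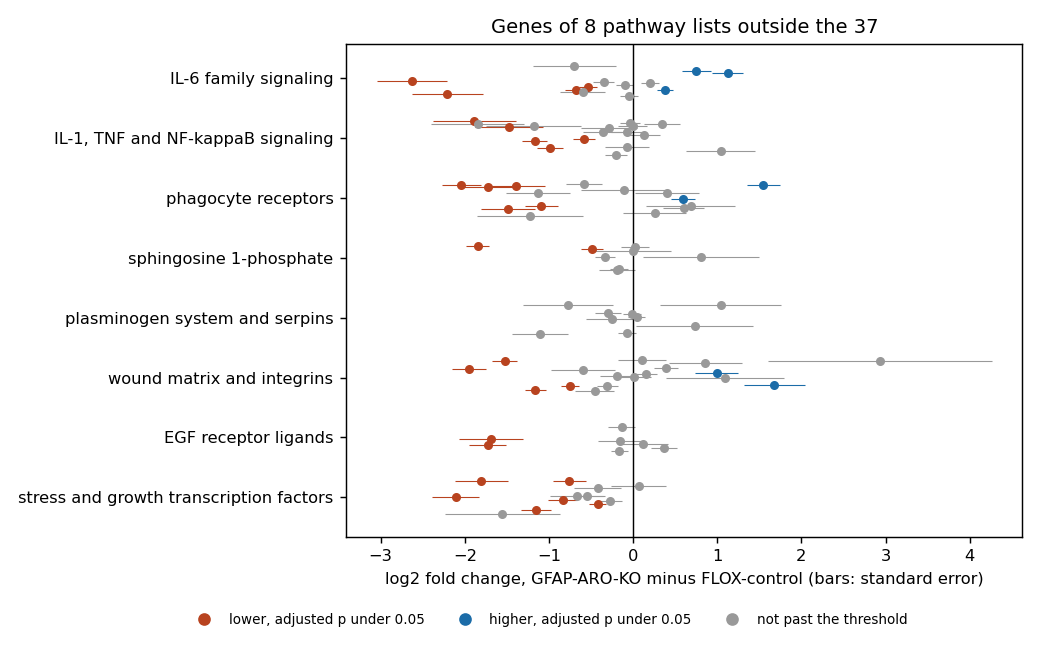
Log2 fold changes (knockout minus control) of the tested non-member genes in each of the 8 pathway lists, with 1 point per gene, bars for the standard error and calls in color. Of the 98 points 28 are called lower and 7 higher, and the plasminogen list has no call.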

How the data were processed

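Hippocampal RNA of 2 FLOX-control and 2 GFAP-ARO-KO samples was sequenced as 50-base single-end reads of total RNA libraries, per the labels' protocols. The deposited values are raw read counts per gene symbol, 1 file per library, which the authors made with bcl2fastq, TopHat2 2.0.8b (mm9) and HTSeq, per the submitters' processing notes. Annotation, strand setting and HTSeq release were not given in the sources used here. In the files, 5 tally rows that name no gene held 45.2% to 47.3% of all entries and were left out of library sizes and tests.

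CPM is the count over the sum of gene counts. The floor for a count of 0 is 3 reads, and intervals are exact 95% intervals of a ratio of counts, which cover counting error only. All genes that pass filterByExpr (minimum count 10, minimum total 15) entered edgeR 4.0.16 in R 4.3.3 (TMM, robust glmQLFit with legacy=FALSE, glmQLFTest, Benjamini-Hochberg adjustment, threshold 0.05). Each ± in the text is a standard error, the absolute log2 fold change over the square root of F. The steps were tested on simulated counts. DESeq2 1.42.0, RLE scaling, no filter on low counts, a replicate block and leaving out each library were the alternatives, and for the rule other fold and CPM limits, scaled library sizes and group means. Same-numbered samples did not deviate together (correlation -0.01 over 15011 genes).

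The members and the gene lists were chosen with earlier results of these data known. Role groups and the list of relatives and partners were drawn up after the members' values were seen, as were the choices of which of those genes and neighbors to name. Named in full by rule were the 20 members with the largest ratio, the 10 with the highest control CPM and members in a list. So were the 4 genes on each side of the limit and the 2 called genes with the smallest p of each pathway list. The most abundant gene of each cell list was named as well, for most lists by its log2 fold change only. Gene models were GENCODE vM1 on NCBIM37, which held 35 of the 37 symbols. Promoters came from RefSeq (GRCm38.p6) and were matched by symbol. Of the 37 members, 3 enter the counts but are not reported here.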

Additional observations from a re-analysis of the deposited data

How the results depend on the processing

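All 37 members met the rule under TMM and RLE scaling; the looser limits, group means and fewer libraries can only add genes to it. The rule gave 75 genes at a 3-fold limit, 9 at an 8-fold limit, 71 with group means, and 54 to 62 when 1 library was left out, 62 without the second knockout. A limit of 2 CPM left 29. Over all genes, 3061 were called, and 814 to 4820 when 1 library was left out: 901 without the first control, 814 without the second, 4820 without the first knockout. The lower calls then ran from 518 to 2433 and the higher from 296 to 2387. The pathway lists had 15 to 34 lower calls, against 28, and 2 to 17 higher, against 7. With the replicate block, 3193 genes were called (1744 lower, 1449 higher); the samples share only a number. The block lost Pcsk1 and Fabp3 among the partners, and DESeq2 called 1738 lower and 1456 higher. Igf2, the mural and meningeal marker with the highest mean CPM over the 4 libraries (226.8 CPM in the second knockout, and below Dcn in the other 3), had a log2 fold change of 2.0, with an adjusted p of 0.338; it was -0.17 without the second knockout and 2.84 without the first. The cause was not tested for any of these shifts. With 2 samples a group, levels under about 3 reads are not resolved.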

Other observations

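A list of genes known to vary between inbred mouse strains, which holds no member, had 11 tested genes. Of these, 3 were lower and 4 higher in the knockout, against shares of 11.0% and 9.39% over all tested genes. Without the first control, 2 of the lower and 2 of the higher calls remained (Wdfy1, Mid1 and Trim12a were lost). Pttg1, the separase inhibitor securin, had 10 and 15 control reads and 784 and 751 knockout reads (log2 fold change 6.0 ± 0.27). Glo1, which detoxifies methylglyoxal, fell (log2 fold change -1.20 ± 0.10), as did Nnt, the mitochondrial transhydrogenase (-0.79 ± 0.14, lost without the second control, adjusted p = 0.0919). Some listed genes also differed within a group. Ifi202b, which was not among the tested genes, had 422 and 9 control reads and 1 and 0 knockout reads. Alad was at 23.7 and 24.2 CPM in the control libraries and at 42.1 and 14.8 CPM in the knockout libraries. The genetic background of the 2 groups was not given in the sources used here, and its part in the members' values was not tested.

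Other cell lists moved in different directions. Endothelial markers summed to 143.5 and 149.5 CPM in the control libraries and 132.3 and 178.0 CPM in the knockout libraries, and neuronal markers to 12210 and 12660 CPM against 11590 and 11860 CPM. Markers of choroid plexus and ependyma summed to 41.4 and 44.5 CPM against 58.7 and 71.1 CPM, and the 2 of 5 that passed higher, Ttr and Clic6, were lost without either control. Those of thalamus and habenula summed to 57.6 and 60.8 CPM against 63.5 and 94.2 CPM. Neocortical markers summed to 262.2 and 192.7 CPM in the control libraries and 154.1 and 146.8 CPM in the knockout libraries, with 3 of 7 passing lower. Of these calls 1 remained without the second control and none without the first. Of the red cell genes, 4 of 6 were listed at 0 in every library. Among the most abundant genes of these lists, Camk2a (neurons, log2 fold change -0.18), Kl (choroid plexus, 0.19), Rprm (neocortex, -0.79) and Alas2 (red cells, 0.49) did not pass. The most abundant leukocyte marker, Lyz2 (-0.39), did not pass either. Flt1 (endothelium, -0.86, adjusted p = 0.0049) passed lower and Prkcd (thalamus, 0.74, adjusted p = 0.0284) higher. The Prkcd call was lost without either control and without the second knockout. Of the 8 endothelial markers 1 passed lower and 1 higher with edgeR, the latter being Pecam1 (log2 fold change 1.05, adjusted p = 0.00526).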
